A study of Mus musculus and Macaca mulatta with 39 samples.

Results

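Acetylation of histone H3 at lysine 27 (H3K27ac) was compared in mouse cerebral cortex between the embryonic stages E14.5 and E11.5, named by the day of gestation. Regions of 4 lists, 2 per stage, were merged wherever they overlapped, which gave 96281 loci, against 137962 when all 8 mouse H3K27ac lists of the series were merged. A locus was gained when both E14.5 lists and neither E11.5 list held a region there, lost when both E11.5 lists and neither E14.5 list did, and shared when all 4 did. There were 9124 gained loci (9.48% of the 96281), 1617 lost loci (1.68%) and 26220 shared loci (27.2%). All positions are on mouse build mm9, and no locus is given a gene name because the annotation at hand was of another build.

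The series profiled embryonic cortex of mouse and rhesus macaque with ChIP-seq, the sequencing of immunoprecipitated chromatin, for H3K27ac and for dimethylation of histone H3 at lysine 4 (H3K4me2), to follow the activity of promoters and enhancers through corticogenesis. It holds 39 samples, of which 16 mouse ChIP samples are used here, and the rhesus and input samples were not analysed here. All mouse tissue came from C57BL6J embryos taken from timed pregnant mothers, with no genotype or treatment that differed between groups. The groups were cortex at E14.5 and cortex at E11.5, with frontal cortex and occipital cortex at E17.5 as lists that played no part in choosing the loci, each with 2 biological replicates and both marks. The labels do not say how many embryos went into a replicate. Chromatin and input were shared by the H3K27ac and H3K4me2 samples of a replicate, so the marks are not independent measurements of a tissue. The deposited lists give the position of each called region without a read count or score, so depth was unknown, and the measurement at a locus is the length covered by called regions, in bp. The tissue label could not be set against marker genes.

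H3K27ac is placed by the acetyltransferases CBP and p300 and is found on nucleosomes beside active promoters and enhancers. H3K4me2 is found at active promoters and enhancers and also at elements that are accessible but not yet acetylated, often called primed. In the mouse cortex E11.5 is a stage at which dividing progenitors of the neuroepithelium predominate, and by E14.5 the wall also contains radial glia, intermediate progenitors and many young neurons. In whole tissue, a change in the mark within a cell type and a change in the share of that cell type cannot be told apart, and this applies to every difference below.

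Both E14.5 lists held more H3K27ac regions, and a larger share of wide ones, than both E11.5 lists. Replicates 1 and 2 held 65261 and 59822 regions at E14.5, against 50882 and 47631 at E11.5. They covered 144.5 and 107.1 Mb at E14.5, against 85.3 and 63.1 Mb at E11.5. The means were 126 ± 26.4 Mb at E14.5 and 74.2 ± 15.7 Mb at E11.5 (SD, n = 2 each), a difference of 51.6 Mb. Both E14.5 lists lay above both E11.5 lists in region number, in covered length and in the share of regions wider than 5 kb, which was 7.32% and 4.81% at E14.5, against 2.997% and 1.09% at E11.5. The median region width overlapped between the stages, with 1575 and 1150 bp at E14.5, against 1250 and 975 bp at E11.5. An exact two-sided permutation test over 2 against 2 lists cannot go below p = 0.333, and it gave that value for region number, for covered length and for the wide regions, and p = 0.667 for the median width. Replicate 1 covered more than replicate 2 at both stages, and the gap between replicates was 37.4 Mb at E14.5 and 22.2 Mb at E11.5. The difference between stages was 32.9 Mb without E14.5 replicate 1 and 70.3 Mb without E14.5 replicate 2, and 62.7 and 40.5 Mb without E11.5 replicate 1 and 2. The H3K4me2 lists of the same tissue did not share this order: they covered 65.3 and 95.2 Mb at E14.5, against 69.3 and 111.7 Mb at E11.5 (exact p = 0.667).

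Before any scaling to the list totals, shared loci held more of the added length than any other single group of loci. Of the net difference of 51.6 Mb, shared loci held 25.2 Mb, or 48.8%. Gained loci held 13.2 Mb, or 25.6%. Loci called in both E14.5 lists and in 1 E11.5 list held a further 11.1 Mb (21.5%). Loci in a single E14.5 list, which like gained loci had no E11.5 region, held 10.3 Mb (20.0%). Lost loci (-1.55 Mb) and loci of a single E11.5 list (-5.90 Mb) stood on the other side of the balance. Shared loci took 62.9% and 69.5% of the covered length of the E14.5 lists, against 76.5% and 78.8% of the E11.5 lists. Gained loci took 10.7% and 10.2% of the E14.5 lists, close to each other although these lists differed in total length. Lost loci took 1.98% and 2.23% of the E11.5 lists.

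**Figure D1:**
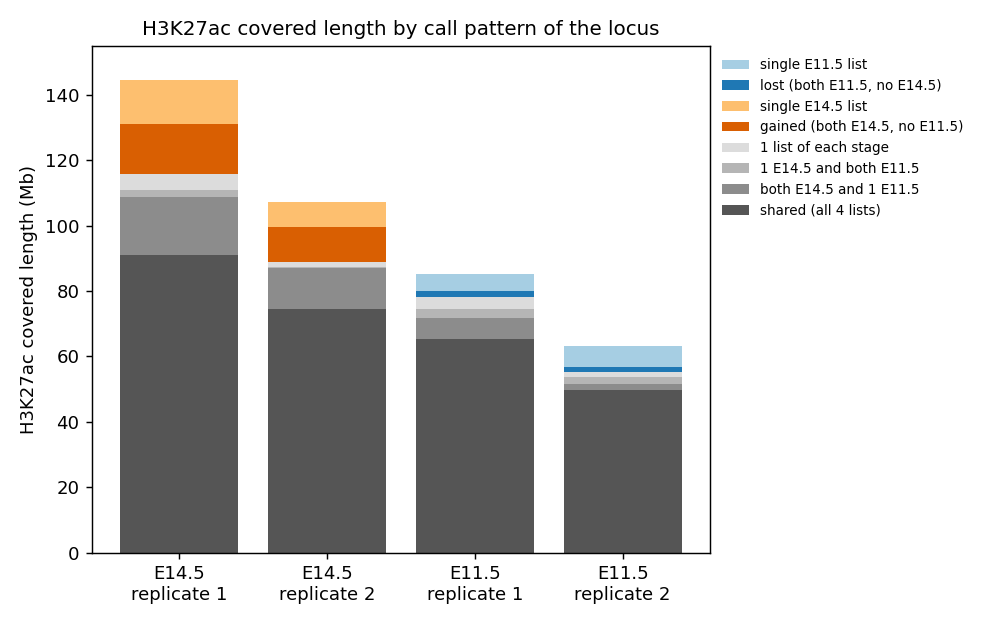
H3K27ac covered length (Mb) of the E14.5 and E11.5 lists, 1 bar per list, stacked by the lists in which a locus was called. The shared part alone is 90.9 and 74.5 Mb in the E14.5 lists, against 65.3 and 49.7 Mb in the E11.5 lists, and the gained part of the E14.5 bars is several times the lost part of the E11.5 bars.

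Since the rule asks for agreement of both lists of a stage, the numbers of gained and lost loci moved when a list was left out and the rule rested on the rest. Gained loci numbered 22028 without E14.5 replicate 1, 24510 without E14.5 replicate 2, 14853 without E11.5 replicate 1 and 11279 without E11.5 replicate 2. Lost loci numbered 3612 without E14.5 replicate 1, 2132 without E14.5 replicate 2, 11558 without E11.5 replicate 1 and 9156 without E11.5 replicate 2. Loci of a single list were numerous, 25717 at E14.5 and 17194 at E11.5, and short, with median widths of 675 and 600 bp. When every list was cut to its 47631 widest regions, the number in the shortest list, there were 5639 gained and 2409 lost loci. Gained loci outnumbered lost loci in each of these settings, by less with an E11.5 list left out or the lists cut.

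Gained loci were of middling width, and lost loci were short. The median width of the merged locus was 1550 bp for gained loci, 1025 bp for lost loci and 2675 bp for shared loci. The central 90% of gained loci ran from 750 to 4375 bp, that of lost loci from 650 to 2800 bp, and that of shared loci from 1350 to 9601 bp. Loci of at least 5 kb numbered 274 among gained, 6 among lost and 4830 among shared loci. Those of at least 10 kb numbered 15, 0 and 1226 in the same order. Because a merged locus spans the regions of all its lists, shared loci are measured over 4 lists and gained or lost loci over 2, which lengthens shared loci by construction. Within a list, gained loci had a median covered length of 1325 and 875 bp in the E14.5 lists, and lost loci 825 and 725 bp in the E11.5 lists, while shared loci had 2450 and 2000 bp at E14.5, against 1950 and 1550 bp at E11.5.

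At the edge of the rule the gained loci passed into loci with 1 short E11.5 region. The 7826 loci called in both E14.5 lists and in a single E11.5 list had a median E14.5 length of 1500 bp, against 1150 bp for gained loci, and their longest E11.5 region had a median of 825 bp. On the other side, the 2410 loci called in both E11.5 lists and a single E14.5 list had a median E11.5 length of 925 bp, against 788 bp for lost loci. Of the gained loci, 5657 had no E11.5 region within 5 kb on either side, and 930 lost loci had no E14.5 region within that distance.

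The longest gained loci were stretches of about 10 to 15 kb with no called region at E11.5. On chromosome 9 from 23981426 to 23996100, regions covered 14650 and 12425 bp in the E14.5 lists, against 0 bp in both E11.5 lists. At E17.5 the same locus was covered over 10526 and 14675 bp in frontal cortex and 14675 and 11075 bp in occipital cortex. It lay 307825 bp from the nearest shared locus, so it was not the edge of a shared locus. Its distance to loci called at both stages but not in every list is not given. A locus on chromosome 13 from 70287676 to 70300900 was covered over 13225 and 9825 bp at E14.5, against 0 bp at E11.5, and one on chromosome 12 from 51044926 to 51056000 over 11025 and 8250 bp, against 0 bp. Both already had H3K4me2 at E11.5. The chromosome 12 locus had 1575 and 4250 bp of H3K4me2 at E14.5, against 1200 and 3850 bp at E11.5, and the chromosome 13 locus 0 and 1250 bp at E14.5, against 925 and 1525 bp at E11.5. The stages therefore overlapped in H3K4me2 at the chromosome 12 locus, where the rule for gained loci had set H3K27ac at 0 bp at E11.5.

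The other long gained loci had H3K4me2 in at most 1 of the E11.5 lists. On chromosome 16 from 91888676 to 91901875, H3K27ac covered 12075 and 9375 bp and H3K4me2 525 and 1800 bp at E14.5, against 0 bp of both marks in all E11.5 lists. On chromosome 5 from 100535126 to 100546275, H3K27ac covered 9350 and 11150 bp and H3K4me2 0 and 2275 bp at E14.5, again against 0 bp of both marks at E11.5. These loci lay 1325 and 450 bp from a shared locus and were thus next to acetylation that both stages had. On chromosome 1 from 123283901 to 123298875 the E14.5 replicates stood apart, with 14100 and 4525 bp of H3K27ac, against 0 bp at E11.5. Its H3K4me2 covered 2425 and 5825 bp at E14.5, against 0 and 1350 bp at E11.5. H3K4me2 could be tested at 5 of the 6 longest gained loci, and none of these 5 passed the threshold (limma on log2(covered bp + 200), Benjamini-Hochberg adjusted p of 0.186 to 1.0 over 37515 loci). Some alternatives gave a call: the adjusted p was 0.0185 for the chromosome 16 locus with lengths scaled to the list total, 0.0394 for the chromosome 1 locus without E11.5 replicate 2, and 0.0407, in the direction of less H3K4me2, for the chromosome 13 locus without E14.5 replicate 2. Over all alternatives the adjusted p of these 5 loci ran from 0.0185 to 1.0.

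The longest lost loci were shorter than the longest gained ones. On chromosome 14 from 69933476 to 69941150, H3K27ac covered 0 bp in both E14.5 lists, against 7675 and 2600 bp at E11.5. On chromosome 7 from 151967101 to 151972925 it covered 0 bp at E14.5, against 5825 and 3675 bp at E11.5, and no E17.5 list had a region there. On chromosome 11 from 102222751 to 102228075 it covered 0 bp at E14.5, against 3025 and 4775 bp at E11.5, also with 0 bp in all E17.5 lists. Of these loci the chromosome 7 one lay 950 bp from a shared locus, and the chromosome 14 and 11 ones 13175 and 8300 bp. All 3 were without H3K4me2 in both E14.5 lists. At E11.5 H3K4me2 covered 675 and 0 bp at the chromosome 14 locus, 0 and 500 bp at the chromosome 11 locus, and 0 bp in both lists at the chromosome 7 locus. The lost locus on chromosome 2 from 156605876 to 156610150 still had H3K4me2 at E14.5, with 800 and 1100 bp, against 1150 and 1400 bp at E11.5, while H3K27ac covered 0 bp in both E14.5 lists, against 3450 and 3550 bp at E11.5. At E17.5 H3K4me2 there covered 975 bp in frontal replicate 1 and 0 bp in the other 3 lists.

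H3K4me2, which played no part in choosing the loci, had a higher mean share of gained loci and a lower mean share of lost loci at E14.5 than at E11.5. A region of the H3K4me2 list overlapped 20.6% and 42.4% of gained loci at E14.5, against 9.84% and 25.1% at E11.5. Replicate 1 at E14.5 fell below replicate 2 at E11.5, so the stages overlapped. The difference between the means was 14.1 percentage points (31.5% ± 15.4 at E14.5 and 17.4% ± 10.8 at E11.5, SD, n = 2 each, exact two-sided permutation p = 0.667). It was 3.18 points without E14.5 replicate 2, 6.47 without E11.5 replicate 1, 21.7 without E11.5 replicate 2 and 25.0 without E14.5 replicate 1. For lost loci the shares were 6.37% and 11.4% at E14.5, against 16.1% and 35.8% at E11.5, and here both E14.5 values lay below both E11.5 values (difference -17.0 percentage points, exact p = 0.333, the smallest this design allows), and the difference was -7.17 points without E11.5 replicate 2 and -26.9 without E11.5 replicate 1. Shared loci were overlapped at 79.8% and 89.97% at E14.5, against 82.5% and 92.4% at E11.5. Over all 96281 loci the shares were 30.4% and 40.8% at E14.5, against 31.1% and 43.2% at E11.5, slightly lower at E14.5 for both replicate numbers. The E14.5 H3K4me2 lists held 32366 and 45149 regions and the E11.5 lists 33865 and 51424, and within a stage the longer list had the higher share in every class. With every H3K4me2 list cut to its 32366 widest regions and every H3K27ac list to 47631, the difference was 12.2 points for gained loci (exact p = 0.333), -8.87 for lost loci (exact p = 0.333) and -0.999 for shared loci (exact p = 0.667).

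**Figure D2:**
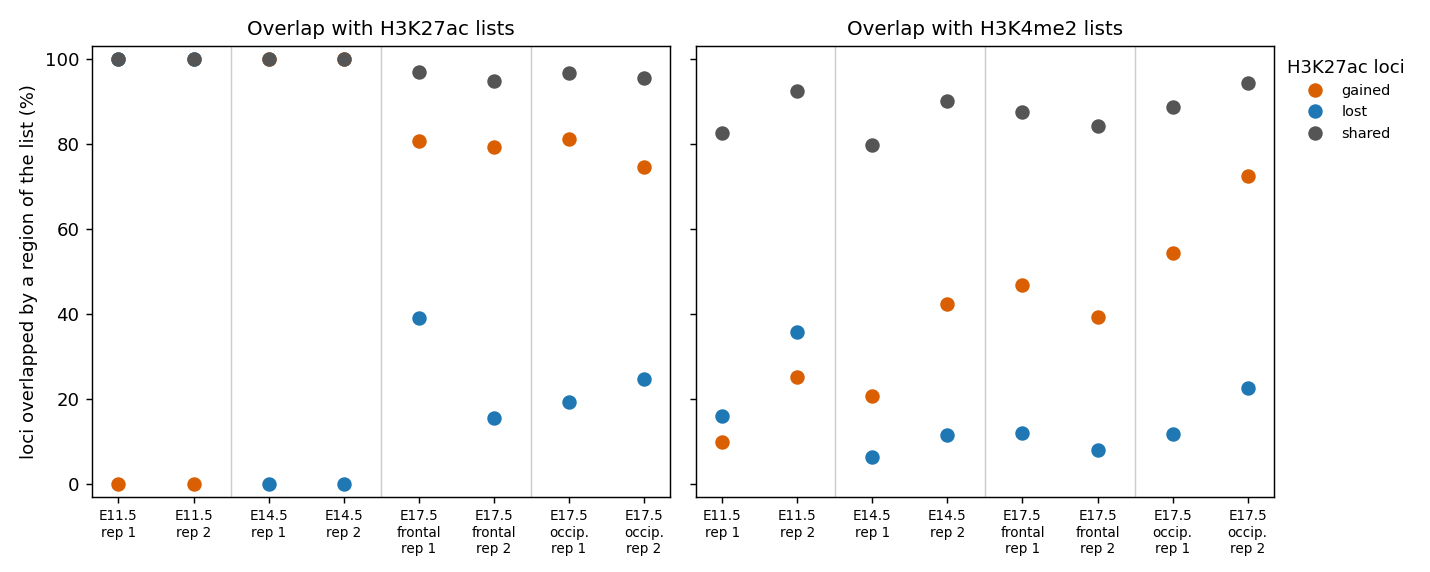
Share of gained, lost and shared H3K27ac loci (%) overlapped by a region of each mouse list, in the order of stages, for H3K27ac lists (left) and H3K4me2 lists (right), 1 point per list. The values of 0 and 100% in the E11.5 and E14.5 H3K27ac lists follow from the rule. In single E17.5 lists, 74.4 to 81.1% of gained and 15.6 to 39.0% of lost loci had H3K27ac.

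By their H3K4me2 at the same stages, gained loci fell into unlike groups. No H3K4me2 list of E14.5 or E11.5 held a region at 4618 of them (50.6%). H3K4me2 was present in all 4 lists at 625 (6.85%), which had the dimethylation before the acetylation was called. It was present in both E14.5 and no E11.5 list at 651 (7.14%), where both marks were called at E14.5 and neither at E11.5. The order of the marks within that interval cannot be told. At 3174 gained loci (34.8%) the H3K4me2 lists of at least 1 stage disagreed. The groups differed in width. The medians were 2200 bp with H3K4me2 at E14.5 only, 1825 bp where lists disagreed, 1550 bp with H3K4me2 in all 4 lists and 1300 bp with none. Among lost loci, 1018 (63.0%) had no H3K4me2 in any of the 4 lists, 98 (6.06%) had it in both E11.5 and no E14.5 list and 80 (4.95%) kept it in all 4. Among shared loci, 19687 (75.1%) had it in all 4 and 1269 (4.84%) in none. The lists of at least 1 stage disagreed at 420 lost (26.0%) and 4672 shared loci (17.8%).

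The share with H3K4me2 was higher for wider gained loci. Of gained loci up to 1 kb, 10.1% and 23.3% were overlapped at E14.5, against 7.28% and 18.1% at E11.5. Of those from 4 to 8 kb, 33.7% and 65.1% were overlapped at E14.5, against 11.1% and 33.5% at E11.5. A wider locus can be hit by a region more easily, and the difference between the stages, over the replicate means, was nonetheless in the same direction in each width bin. For shared loci from 2 to 4 kb the shares were 81.1% and 90.6% at E14.5, against 84.3% and 93.1% at E11.5, well above those of gained loci of the same width.

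Locus by locus, changes in H3K4me2 length were rarely called. The limma test could be run at 37515 loci that at least 2 of the 4 H3K4me2 lists of these stages touched. Of these, 1296 rose (3.45%) and 931 fell (2.48%) at E14.5 against E11.5 at a Benjamini-Hochberg adjusted p below 0.05. Of the 9124 gained loci, 2570 could be tested, 517 rose and 18 fell. Of the 1617 lost loci, 289 could be tested, none rose and 68 fell, with 104 at an unadjusted p below 0.05 in either direction. Over all 37515 loci, 4150 had an unadjusted p below 0.05 in the same limma test. A locus with H3K4me2 only at E14.5 enters the test through the stage at which it is high, and 504 of the 517 gained loci that rose were of that kind. Likewise 67 of the 68 lost loci that fell, and all 18 gained loci that fell, had H3K4me2 in both E11.5 and no E14.5 list. These counts therefore repeat the presence pattern. Of the 625 gained loci with H3K4me2 in all 4 lists, 11 rose and none fell. Of the 19687 shared loci of that kind, 90 rose and 73 fell. When only loci with H3K4me2 in at least 3 of the 4 lists were tested, 2 of 1235 gained and 0 of 159 lost loci were called, with 70 and 9 at an unadjusted p below 0.05. Over all 30294 loci of this setting, 19 rose (0.063%) and 10 fell (0.033%), with 1258 at an unadjusted p below 0.05. The median log2 change in H3K4me2 at the tested gained loci was 0.30 with all lists. It was 1.31 without E11.5 replicate 2, the longest of the 4 lists, and 1.28 without E14.5 replicate 1. Without E14.5 replicate 2 it was 0.087, and without E11.5 replicate 1 -0.033. Over all tested loci these medians were -0.00052 with all lists and, in the same order, 0.0062, 0.020, -0.067 and -0.096.

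The gained loci with the longest new H3K4me2 had neither mark called at E11.5. On chromosome 5 from 138196651 to 138201725, H3K27ac covered 4475 and 5000 bp and H3K4me2 2200 and 3275 bp at E14.5, against 0 bp of either mark at E11.5. At E17.5 its H3K27ac covered 5075 and 5075 bp in frontal cortex and 5050 and 2250 bp in occipital cortex. On chromosome 16 from 36781801 to 36787425, H3K27ac covered 4800 and 4625 bp and H3K4me2 2200 and 3000 bp at E14.5, against 0 bp of either mark at E11.5. There H3K27ac was shorter again at E17.5, with 650 and 2650 bp in frontal and 2450 and 1275 bp in occipital cortex, while H3K4me2 kept its length, with 2800 and 2500 bp in frontal and 3075 and 2900 bp in occipital cortex. The rule also named a locus on chromosome Y from 2863376 to 2868525, where E14.5 replicate 2 alone gave most of the length: H3K27ac covered 600 and 5150 bp and H3K4me2 0 and 5150 bp at E14.5, against 0 bp of either mark at E11.5. That replicate listed 81 H3K27ac regions on chromosome Y, against 18 to 23 in the other 3 lists of these stages.

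Each E17.5 list, none of which chose the loci, held most gained loci and at most 39.0% of lost ones. None of the 4 lists held a region at 769 lost loci (47.6%), so the other lost loci were called in at least 1 of them. H3K27ac regions overlapped 80.7% and 79.3% of gained loci in frontal and 81.1% and 74.4% in occipital cortex at E17.5. The same lists overlapped 39.0% and 15.6% of lost loci in frontal and 19.3% and 24.7% in occipital cortex. The mean share was 78.9% ± 3.09 for gained and 24.6% ± 10.3 for lost loci (SD, n = 4 lists). Gained loci had the higher share in 4 of 4 lists, by 54.3 percentage points on average, and an exact sign-flip permutation test over 4 lists gave p = 0.125, the smallest it can give. The gained share also stood above that of all 96281 loci, which was 63.9% and 58.2% in frontal and 59.3% and 56.8% in occipital cortex, and below that of shared loci, 94.8 to 96.9%. The highest value for lost loci came from frontal replicate 1, the list with the most regions, 87236, and with 893 on chromosome X against 2037 to 2489 in the other E17.5 lists.

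Persistence went with width and with H3K4me2. All 4 E17.5 H3K27ac lists held 5228 gained loci (57.3%), 83 lost loci (5.13%) and 23655 shared loci (90.2%), against 42.8% of all loci. None of them held 487 gained loci (5.34%) and 769 lost loci (47.6%), against 23.5% of all loci. The shares of all loci again include the short loci of a single list. Of gained loci up to 1 kb, 29.2% were in all 4 E17.5 lists, of those from 2 to 4 kb 72.1%, and of those from 4 to 8 kb 86.8%. Lost loci showed no such order, with 5.05% up to 1 kb and 6.07% from 2 to 4 kb. Of the gained loci with H3K4me2 in both E14.5 and no E11.5 list, 518 of 651 (79.6%) were in all 4 E17.5 lists. With H3K4me2 in all 4 earlier lists the share was 452 of 625 (72.3%), and with none 2220 of 4618 (48.1%), which is also the order of the median widths of these groups. Loci at which the H3K4me2 lists of a stage disagreed stood outside that order, with 63.3% and a median of 1825 bp.

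A small number of gained loci were seen at E14.5 alone. The longest of the 487 with no E17.5 region lay on chromosome 10 from 91028101 to 91031675, where H3K27ac covered 2800 and 3450 bp at E14.5, against 0 bp in both E11.5 lists and in all E17.5 lists. On chromosome 7 from 103588851 to 103591650 it covered 2600 and 2525 bp at E14.5, against 0 bp at E11.5, and no list of either stage or of E17.5 had H3K4me2 there. On chromosome 2 from 157883126 to 157885825 it covered 2700 and 2175 bp at E14.5, against 0 bp at E11.5. At this last locus H3K4me2 appeared only later, with 875 and 725 bp in frontal and 2325 and 2550 bp in occipital cortex at E17.5, when H3K27ac was no longer called.

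Gained loci had shorter median distances to one another than other loci had to them. The median distance, edge to edge, to the nearest other gained locus was 38125 bp from a gained locus, against 71188 bp from a shared locus, 84275 bp from a lost locus and 61775 bp from all loci that were not gained. Within 10 kb of another gained locus lay 22.2% of gained loci, against 12.8% of shared and 8.78% of lost loci. Lost loci were likewise nearer to each other, with a median of 232825 bp to the nearest other lost locus, against 376275 bp from shared and 500950 bp from gained loci. Distances to the nearest shared locus were alike, 19425 bp from gained, 17625 bp from lost, 16250 bp from other shared loci and 20050 bp from all loci that were not shared. With all lists cut to 47631 regions, the distance from gained to gained loci was 0.505 of that from shared to gained loci, against 0.536 with all regions. Neighbouring loci share their surroundings, and no list had regions less than 1025 bp apart, so these distances are given as a description with no test.

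**Figure D3:**
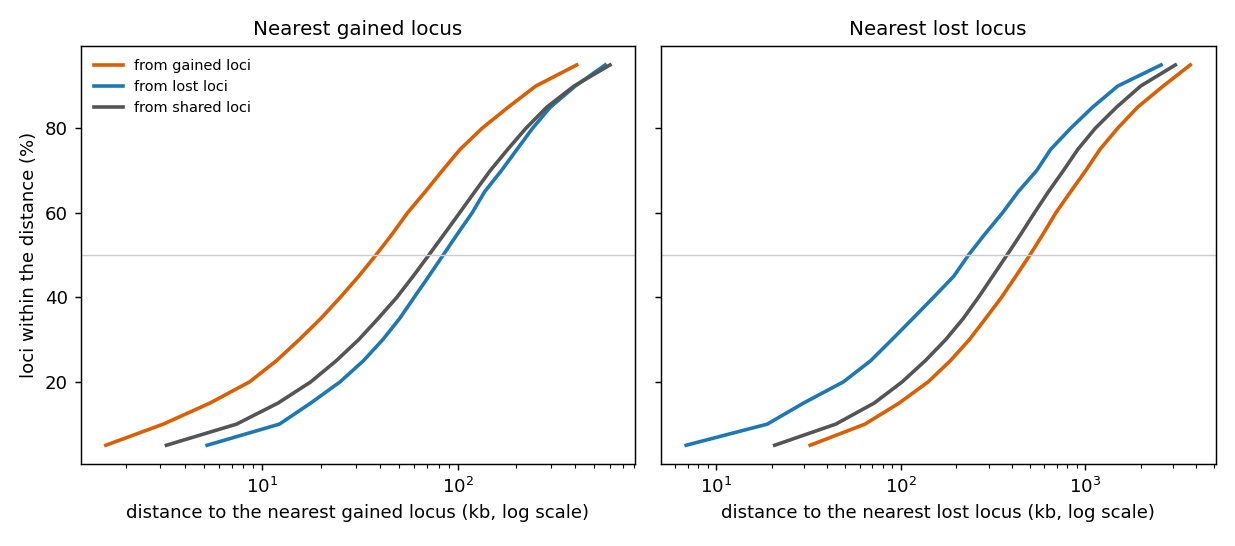
Cumulative share of loci (%) by distance to the nearest gained locus (left) and nearest lost locus (right), edge to edge in kb on a log scale, for gained, lost and shared loci, drawn from the 5th to the 95th percentile. The gained curve lies left of the others in the left panel (median 38125 bp, against 71188 bp from shared and 84275 bp from lost loci), and the lost curve lies left of the others in the right panel.

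Chains of gained loci were found on every autosome and on chromosome X. Joined over gaps of up to 12.5 kb, gained loci formed 200 chains of 3 or more members that held 677 loci (7.42%), of which 149 chains had 3 members, 33 had 4, 14 had 5 and the other 4 had 6 to 8. Lost loci formed 7 such chains with 23 loci (1.42%), and shared loci 1437 chains with 21.3% of their loci. A fixed gap joins more loci in a larger class, and the classes held 9124 gained, 1617 lost and 26220 shared loci. These shares therefore do not rank the classes by clustering. Chromosomes 2 and 13 held 16 chains each and chromosome X a single one. The share of loci that were gained was 8.77 to 11.3% on the autosomes and 4.78% on chromosome X (153 of 3204), where E14.5 lists held 1920 and 1585 regions, against 1632 and 1656 at E11.5.

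The chain with the most members, 8, spanned 51500 bp on chromosome 2 from 92590151 to 92641650. H3K27ac covered 18600 and 12075 bp of it at E14.5, against 0 and 525 bp at E11.5. Neither stage had H3K4me2 there. At E17.5 H3K27ac covered 17700 and 8525 bp in frontal and 9600 and 11475 bp in occipital cortex, and H3K4me2 775 to 4400 bp over the 4 lists.

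A chain of 7 loci on chromosome 9 from 113156376 to 113215750 was the widest of those named, at 59375 bp. The gained loci made up 24975 bp of that span, and the lengths given are over the whole span. H3K27ac covered 22700 and 13900 bp at E14.5, against 0 bp in both E11.5 lists. It was longer still at E17.5, with 46350 and 42025 bp in frontal and 42225 and 30800 bp in occipital cortex at E17.5, a mean of 40350 ± 6671 bp over 4 lists, against 18300 ± 6223 bp at E14.5 (SD, n = 2). H3K4me2 was absent from all 4 lists of E14.5 and E11.5 and covered only 1025 to 3875 bp at E17.5. A chain of 7 loci on chromosome 1 from 128326951 to 128373825 had more H3K4me2. There H3K27ac covered 19100 and 14650 bp at E14.5, against 0 bp at E11.5, and H3K4me2 775 and 5075 bp at E14.5, against 0 and 2050 bp at E11.5.

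**Figure D4:**
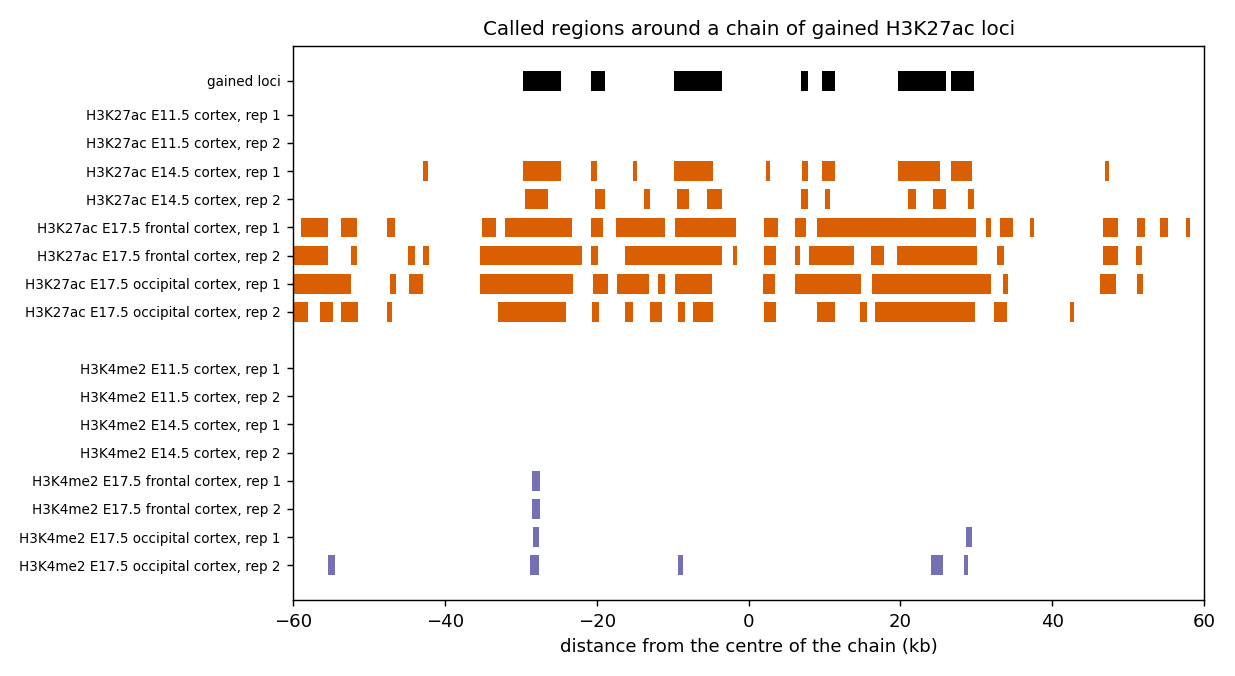
Called regions in each mouse list around the 7-locus chain of gained loci on chromosome 9, by distance from the centre of the chain (kb), with the gained loci in black, H3K27ac regions in orange and H3K4me2 regions in violet. Both E11.5 H3K27ac rows are empty, the E14.5 rows hold separate short regions, the E17.5 rows hold longer regions over and around them, and H3K4me2 appears only at E17.5.

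Among chains of lost loci, the one with the most members, 5, lay on chromosome X from 47919376 to 47951500. Lengths here are over its whole span of 32125 bp, in which the 5 lost loci made up 7525 bp and 2 other loci lay. H3K27ac covered 0 bp in both E14.5 lists, against 9700 and 4675 bp at E11.5. At E17.5 regions covered 7150 and 12050 bp of the span in frontal and 16625 and 15700 bp in occipital cortex. How much of this lay on the lost loci is not given. H3K4me2 covered 8200 and 0 bp at E14.5, against 7475 and 8575 bp at E11.5, so E14.5 replicate 1 kept the dimethylation where replicate 2 listed none. The other 6 chains had 3 members each, and the widest of these by span are given next. On chromosome 14 from 69919126 to 69941150, H3K27ac over 3 lost loci covered 0 bp at E14.5, against 13125 and 3900 bp at E11.5. Over the 3 lost loci on chromosome 11 from 32142501 to 32157150 it covered 0 bp at E14.5, against 11450 and 3200 bp at E11.5. In both of these chains E11.5 replicate 1 held most of the length, so their size rests mainly on that list. At the chromosome 11 chain no H3K4me2 was called in any mouse list, nor H3K27ac at E17.5.

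Most shared loci that differed were longer at E14.5, before any allowance for the longer lists. Both E14.5 lengths exceeded both E11.5 lengths at 12020 of 26220 shared loci (45.8%), against 48.9% of all 53370 loci called in at least 2 of the 4 lists, and the reverse held at 929 (3.54%), against 6.1% of the 53370. Gained and lost loci meet these criteria by rule, and over the 42629 loci that are neither the shares were 39.8% and 3.84%. The median length of shared loci was 2238 bp at E14.5 and 1750 bp at E11.5. Lengthening was seen at both ends of the range: loci up to 1 kb at E11.5 had a median ratio of 1.69 (E14.5 over E11.5), those from 2 to 4 kb 1.14 and those over 8 kb 1.38. Loci were binned by their E11.5 length, which by construction raises the ratio of the shortest and lowers that of the longest. Neighbouring regions also joined: 436 shared loci were 1 region in both E14.5 lists and at least 2 regions in both E11.5 lists, against 54 with the reverse. Loci covered over at least 10 kb in both lists of a stage numbered 710 at E14.5 and 134 at E11.5, and 131 were of that length in all 4 lists. In single lists they numbered 1075 and 732 at E14.5, against 390 and 139 at E11.5.

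By limma, 2531 shared loci rose (9.65%) and 37 fell (0.14%), against 17.3% and 1.98% of all 53370 loci tested, of which 9124 are gained and 1617 lost by rule. The median log2 change was 0.45 over all tested loci and 0.25 over shared loci, where the first includes gained and lost loci whose values the rule fixed at 0 bp in 1 stage. When lengths were scaled to the total of each list the direction turned, with 851 shared loci higher and 2164 lower and a median of -0.44, against -0.14 for all loci. With all lists cut to their 47631 widest regions it did not turn, with 2254 higher and 113 lower. Leaving out E14.5 replicate 1 gave 1109 higher and 108 lower, leaving out E11.5 replicate 1 gave 4221 higher, leaving out E14.5 replicate 2 gave 19 lower and leaving out E11.5 replicate 2 gave 70 lower. Whether shared loci were longer or shorter relative to their list thus depended on the scaling, and the lengths themselves are reported here unscaled.

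**Figure D5:**
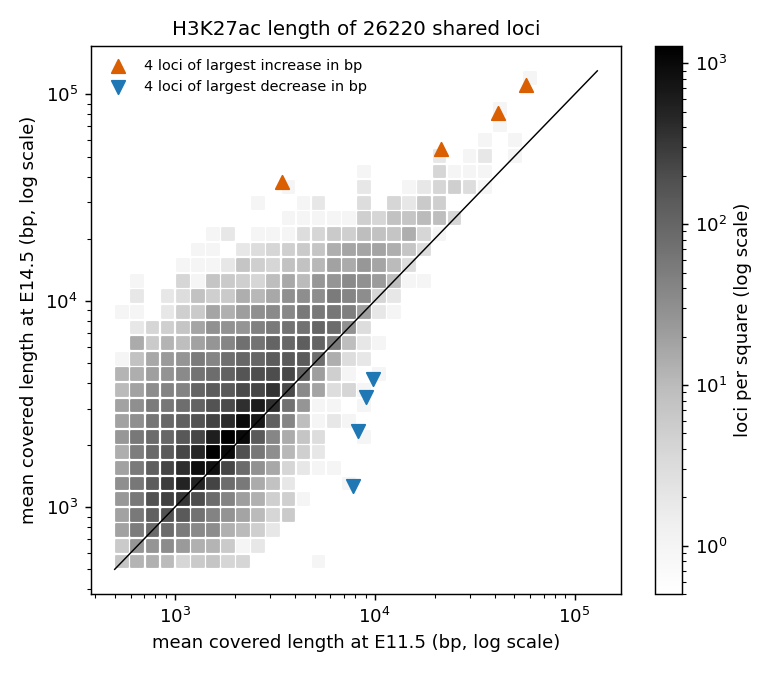
Mean H3K27ac covered length of the 26220 shared loci at E14.5 (vertical) and E11.5 (horizontal), in bp on log scales, with the number of loci per square in grey, the line of equal length, and the 4 shared loci with the largest increase and decrease marked. Loci lie mainly on or above the line, and the marked locus far above it covered 37525 bp at E14.5 and 3450 bp at E11.5.

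Among the 4 shared loci with the largest increase in bp, the one furthest from equal length lay on chromosome 12 from 107340576 to 107379700. H3K27ac covered 39125 and 35925 bp at E14.5, against 3725 and 3175 bp at E11.5 (log2 change 3.37 ± 0.31 SE, limma adjusted p = 0.00281, 0.00061 to 0.0235 over the alternatives). At E17.5 it covered 37850 and 35000 bp in frontal and 37900 and 33175 bp in occipital cortex, so the length reached by E14.5 was held. H3K4me2 covered 2875 and 4900 bp at E14.5, against 0 and 2175 bp at E11.5 (adjusted p = 0.675, 0.0158 to 0.980 over the alternatives), and that call turned on 1 list, with an adjusted p of 0.0158 without E11.5 replicate 2. The domain was therefore almost 40 kb of acetylation over a few kb of called dimethylation.

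The other 3 of the 4 largest increases in bp were at wide domains. On chromosome 8 from 122909876 to 123025350, H3K27ac covered 115300 and 106675 bp at E14.5, against 72625 and 41725 bp at E11.5. On chromosome 9 from 57880501 to 57967775 it covered 83975 and 79375 bp at E14.5, against 50450 and 32600 bp at E11.5. On chromosome 4 from 119908826 to 119964625 it covered 55800 and 52475 bp at E14.5, against 24075 and 18750 bp at E11.5. The rule took only loci whose stages did not overlap, and none of these 3 passed the test (adjusted p = 0.929, 0.836 and 0.390), in a fit that lets the spread follow the mean length and gave the widest loci a large spread. Without that trend the adjusted p values were 0.101, 0.0547 and 0.00711. H3K4me2 at these domains overlapped between the stages on chromosomes 8 and 9, and on chromosome 4 it covered 28400 and 39575 bp at E14.5, against 22825 and 26500 bp at E11.5 (adjusted p = 1.0, 0.668 to 1.0 over the alternatives).

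The 4 shared loci with the largest decrease were domains of several kb at E11.5, and at each both E14.5 H3K4me2 lengths also lay below both E11.5 lengths, as they did at 13.7% of the 37515 loci tested for H3K4me2. On chromosome 6 from 29643701 to 29653725, H3K27ac covered 1450 and 1075 bp at E14.5, against 10025 and 5600 bp at E11.5 (log2 change -2.41 ± 0.31 SE, limma adjusted p = 0.00569, 0.00149 to 0.281 over the alternatives, and past the threshold in all of them but the cut to 47631 regions). H3K4me2 there covered 1751 and 1950 bp at E14.5, against 4075 and 3600 bp at E11.5 (log2 change -0.98 ± 0.09 SE, adjusted p = 0.00594, 0.00417 to 0.295 over the alternatives). At E17.5 H3K27ac covered 1000 to 1300 bp over the 4 lists, so the remnant stayed.

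On chromosome 14 from 69892476 to 69904125, beside the chain of lost loci described above, H3K27ac covered 2400 and 2275 bp at E14.5, against 11650 and 4875 bp at E11.5 (adjusted p = 0.0572, 0.00786 to 0.233 over the alternatives, of which leaving out E11.5 replicate 2 gave 0.0200). H3K4me2 fell there, with 2575 and 3025 bp at E14.5, against 8225 and 7700 bp at E11.5 (log2 change -1.45 ± 0.09 SE, adjusted p = 0.00139, 0.00091 to 0.0603 over the alternatives). On chromosome 5 from 120880401 to 120890975, H3K27ac covered 5500 and 1375 bp at E14.5, against 10525 and 7550 bp at E11.5 (adjusted p = 0.478), and H3K4me2 7149 and 7075 bp, against 10575 bp in both E11.5 lists (log2 change -0.56 ± 0.06 SE, adjusted p = 0.00835, 0.00923 to 0.863 over the alternatives, with 0.0612 without E14.5 replicate 1 or E11.5 replicate 1). The last, on chromosome 6 from 23193551 to 23205925, had its lowest acetylation later. Its H3K27ac covered 4600 and 3725 bp at E14.5, against 12375 and 7350 bp at E11.5 (adjusted p = 0.300), and at E17.5 0 bp in 3 lists and 600 bp in occipital replicate 2. Its H3K4me2 outlasted the acetylation, with 4575 and 7875 bp at E14.5, against 12375 bp in both E11.5 lists (adjusted p = 0.303), and 2875 to 5050 bp over the E17.5 lists.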

How the data were processed

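H3K27ac and H3K4me2 ChIP-seq region lists of mouse cortex were used, 16 in all. Per the deposited files, each list holds chromosome, start and end and no other value, and the intervals, in bp, are the only measurement. The authors called regions for each sample separately, with no score or signal deposited beside them. Per the submitters' processing notes reads went through Bowtie 0.12.9, and hg19 and mm9 appear as builds with no role stated. Caller and threshold: not given in the sources used here. Without read counts the depth is unknown, and no counting interval was computed. All positions are 1-based.

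Loci were merged from touching or overlapping regions of the 4 H3K27ac lists of E14.5 and E11.5. Each locus was given, per list, the bp that regions of that list cover. The log2 of this length plus 200 bp entered limma 3.58.1 under R 4.3.3 (lmFit, eBayes with a mean-variance trend), fitted with 1 mean for each of the 4 tissues to the 8 lists of a mark. The contrast was E14.5 minus E11.5 over all loci that at least 2 of the 4 lists held. A call needed a p below 0.05 after Benjamini-Hochberg adjustment, and the added 200 bp understates changes of short loci. Values per list were compared by exact two-sided permutation, with an overlap of at least 1 bp. Replicates are biological ones per the series' design text. Software was Python 3.11.15 (pandas 2.3.3, numpy 2.4.6, scipy 1.17.1) with matplotlib 3.10.9 for figures. The interval functions and the locus test were tested on simulated data.

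Named loci were the 6 longest gained and 6 longest lost loci by mean length, the 4 shared loci with the largest increase and the 4 with the largest decrease among those whose stages did not overlap, the 4 gained and 3 lost chains with the most members (ties by span), the 3 gained loci with the longest H3K4me2 at E14.5 and none at E11.5, and the 3 longest gained loci with no H3K27ac at E17.5. A part of them is described. The loci, this rule and the tests were chosen with earlier results of these data known. Gene lists were not counted, since no annotation of mm9 was used here. Alternatives tried were adding 1000 bp instead of 200, a block for the replicate number, testing loci held by 3 or more lists or by any list, a fit over the 4 lists of the compared stages, scaling to the list total, cutting lists to the same number of regions (the widest), regions of at least 1000 bp, merging over 1000 bp, a clearance of 5000 bp, other chain gaps, overlaps of 50% or more, and leaving out single lists. A fit with no mean-variance trend was added after the data were seen.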

Additional observations from a re-analysis of the deposited data

How the results depend on the processing

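Of 182 alternatives to 21 main values, 132 stayed within 1.5 times or 1 SD of the main value, 48 moved further and 2 turned in sign. Both turned ones concern the share of shared loci with H3K4me2, whose difference of -2.57 percentage points became 2.52 without E14.5 H3K4me2 replicate 1 and 2.34 without E11.5 H3K4me2 replicate 2, with -7.67 the lowest. For gained loci leaving out a list gave 3.18 to 25.0 points and for lost loci -26.9 to -7.17. With lists left out, gained loci numbered 11279 to 24510 and lost loci 2132 to 11558, since the rule then rests on fewer lists. With lists cut to 47631 regions there were 5639 gained and 2409 lost loci, and 76 gained and 11 lost chains of 3 or more. The median width difference was then 637.5 bp, with 5.89 points more regions over 5 kb. With regions of at least 1000 bp there were 492 lost loci and 6.05 points more regions over 5 kb, and with a clearance of 5000 bp 5657 gained and 930 lost loci. Chains of 3 or more numbered 77 gained over gaps of 5000 bp, and 426 gained and 15 lost over gaps of 25000 bp. The cause of these moves was not tested beyond what each construction sets.

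For H3K27ac calls, requiring 3 of the 4 lists, which leaves out every gained and lost locus, gave 1339 higher and 11 lower over all loci and 1230 and 11 among shared loci. Testing loci of any list gave 349 lower over all and 18 among shared loci. Scaling to the list total gave 67.5% of calls higher, against 89.7% unscaled, with 3645 lower over all loci and 851 higher and 2164 lower among shared loci. An equal number of regions gave 6144 higher and 1773 lower over all loci (77.6% higher) and 113 lower among shared loci, and the fit over 4 lists 1330 higher among shared loci. Leaving out a list gave 6105 to 12975 higher and 968 to 1582 lower over all loci, and 1109 to 4221 higher and 19 to 108 lower among shared loci. For H3K4me2 calls, 3 of the 4 lists gave 19 higher and 10 lower over all loci, 2 gained higher and 0 lost lower. The fit over 4 lists gave 765 higher over all and 290 gained, a pseudocount of 1000 bp 331 gained, and an equal number of regions 1416 lower. Leaving out a list gave 1069 to 4658 higher and 773 to 4527 lower over all loci, 359 to 811 gained loci higher and 65 to 97 lost loci lower. At named loci 449 of 490 alternatives kept their direction and side of the threshold, 18 were weaker and 12 stronger. The other 11, all H3K4me2 changes that passed the threshold in neither fit, turned in sign. For 5 loci this was without E14.5 H3K4me2 replicate 2 and without E11.5 H3K4me2 replicate 1. Their log2 changes became -1.14 and -1.07 on chromosome 10 from 91028101 (with a list left out, up to 1.28), -0.42 and -0.53 on chromosome 12 from 51044926 (up to 1.00), and -1.26 and -0.83 on chromosome 9 from 23981426 (up to 2.13). They became -0.09 and -0.17 on chromosome 8 from 122909876 (up to 0.63), and -0.19 and -0.50 on chromosome 9 from 57880501 (up to 0.74). On chromosome 13 from 70287676 the change was 0.0578 without E14.5 H3K4me2 replicate 1 and otherwise down to -2.80.

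Same-numbered replicates correlated in their deviations at -0.137 to 0.159 for H3K27ac and -0.163 to 0.47 for H3K4me2. The compared stages gave 0.159 and 0.47, but other pairs of tissues fell below 0, so the numbers were not taken as a pairing. With the replicate number as a block, 8960 loci were higher and 1014 lower for H3K27ac, and 1112 higher and 812 lower for H3K4me2. Among the counts printed it moved none by over 1.5 times, and of the named H3K27ac changes it called 1 more, on chromosome 14 from 69892476 (adjusted p = 0.0413).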

Other observations

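H3K4me2 of E17.5 was also set against the gained loci. It overlapped 46.9% and 39.3% of gained loci in frontal and 54.2% and 72.4% in occipital cortex at E17.5, against 42% and 37.7% of all loci in frontal and 44.6% and 55.9% in occipital cortex. In the E14.5 lists the shares were 20.6% and 42.4% of gained loci, against 30.4% and 40.8% of all loci. All loci include the short loci of a single H3K27ac list, so they are not matched to gained loci. The H3K4me2 lists of E17.5 held 43039 to 76833 regions, and the highest share came from the longest list, so list length moves with the share and its part at E17.5 was not tested. All 4 E17.5 H3K4me2 lists held 3075 of the 9124 gained loci (33.7%), and 105 of the 1617 lost loci (6.49%), against 34.6% of all loci, so the gained share was close to that of all loci. Of the 4618 gained loci with no H3K4me2 in any list of E14.5 or E11.5, 419 (9.07%) had it in every E17.5 list and 42.3% had it in no E17.5 list.

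Gained loci that were in both lists of 1 area at E17.5 and in neither list of the other numbered 130 (1.43%) for frontal and 113 (1.24%) for occipital cortex, against 1.52% and 0.89% of all loci. Lost loci of that kind numbered 28 (1.73%) for frontal and 16 (0.99%) for occipital cortex. On chromosome X, E14.5 H3K4me2 replicate 1 listed 789 regions, against 1144 to 2157 in the other 7 H3K4me2 lists, and it listed none on chromosome Y.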
